A study of Homo sapiens with 2 samples.

Results

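The regions described here are the open-chromatin peaks at 2 genes, RUNX1 and RUNX3, in 2 human leukaemia cell lines. A peak was a member when its summit, the base with the highest signal, lay in a 1.3-Mb window around RUNX1 (hg19 chromosome 21, 36.1 to 37.4 Mb) or in a 0.2-Mb window around RUNX3 (hg19 chromosome 1, 25.2 to 25.4 Mb). This gave 30 peaks of the 49792 in both lists, 20 at RUNX1 and 10 at RUNX3. Peaks entered by position only and not by a measured value, but the members were chosen with earlier results of these data known. Jurkat and RPMI-8402 are established lines of T-ALL (T-cell acute lymphoblastic leukaemia), in which immature T cells turn malignant. They were cultured in serum-containing RPMI-1640 medium with no treatment named in the labels. Accessible chromatin was tagged by the Tn5 transposase (ATAC-seq), and each line was represented by 1 library. There is therefore no replicate error, no test between the lines was possible, and intervals cover counting error only.

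RUNX1 and RUNX3 encode transcription factors that bind DNA through a runt domain, together with their partner subunit CBFB. Each gene is transcribed from a distal and a proximal promoter, which give proteins that differ at the start. RUNX1 is needed for blood stem cells and early T cells, and in T-ALL it is known to act at enhancers together with TAL1, GATA3, MYB and LMO proteins. RUNX3 is best known in T cells for silencing CD4 and for the programme of CD8 and cytotoxic cells. Both genes lie on the minus strand, so upstream means higher coordinates. RUNX1 spans 261.5 kb and RUNX3 65.6 kb in the RefSeq annotation of GRCh38, and their coding neighbours there are CLIC6 and SETD4, and CLIC4 and SYF2. The exon annotation of hg19 was not used here, so elements inside a gene are given by their distance from its distal start.

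The promoter sequences of the genes are shown for their CpG content and for RUNX motifs at a RUNX gene. The RefSeq table holds 3 promoters of the 2 genes: the proximal promoter of RUNX1 and both promoters of RUNX3. It does not list a distal promoter of RUNX1. The 250 bases before each start are printed 5′ to 3′ on the gene's strand from GRCh38.p14, a different build from that of the peaks, and were matched to peaks by the promoter's name only, so they are not the sequence under a given peak. Capitals mark the core RUNX motif TGTGGT or its reverse complement ACCACA.
RUNX3 distal, chr1:24965011-24965260, minus strand: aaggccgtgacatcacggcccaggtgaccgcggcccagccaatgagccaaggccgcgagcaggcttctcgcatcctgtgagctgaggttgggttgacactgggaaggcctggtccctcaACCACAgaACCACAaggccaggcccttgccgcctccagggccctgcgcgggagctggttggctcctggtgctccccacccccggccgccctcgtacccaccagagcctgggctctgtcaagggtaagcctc
RUNX3 proximal, chr1:24930277-24930526, minus strand: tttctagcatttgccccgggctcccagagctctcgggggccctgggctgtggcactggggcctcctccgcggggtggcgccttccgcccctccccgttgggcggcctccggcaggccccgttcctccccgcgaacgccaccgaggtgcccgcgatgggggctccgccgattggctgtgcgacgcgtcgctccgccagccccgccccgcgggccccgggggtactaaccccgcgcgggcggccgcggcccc
RUNX1 proximal, chr21:34888700-34888949, minus strand: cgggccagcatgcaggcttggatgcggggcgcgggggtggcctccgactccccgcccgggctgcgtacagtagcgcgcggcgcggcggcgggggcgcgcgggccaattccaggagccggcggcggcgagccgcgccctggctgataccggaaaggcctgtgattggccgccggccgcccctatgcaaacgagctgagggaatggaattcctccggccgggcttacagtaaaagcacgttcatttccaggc

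The proximal promoters of both genes are rich in CpG, the dinucleotide that clusters in CpG islands. RUNX1 proximal held 32 CpG and RUNX3 proximal 33, more than 90.5% and 91.9% of the 35116 promoters in the table, whose median was 11. RUNX3 distal held 13, more than 53.4% of them. In GC content the 3 promoters were at 71.2% (RUNX1 proximal), 78.4% (RUNX3 proximal) and 67.6% (RUNX3 distal). The RUNX motif occurred at 2 places in RUNX3 distal, beginning 131 and 123 bases before the start, and at 0 in the 2 proximal promoters. Of all promoters in the table, 10.98% held it at least once and 0.971% at 2 or more places. The other 6 letter strings searched, also on both strands, had no match that overlapped a RUNX match. CAGGTG, an E-box, occurred once in RUNX3 distal (17.5% of all promoters hold it), and AACGG, a MYB core, at 2 places in RUNX3 proximal (16.5% hold it). The E-box CAGCTG (14.0%), GATAAG of GATA factors (5.65%), CCGGAAGT of ETS factors (3.42%) and the other MYB core AACTG (34.1%) were found in none of the 3 windows. A match describes letters only, and binding was not measured.

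The signal compared below is the pileup, the number of fragments that cover a summit, solved from the fold enrichment and p-value that the authors' peak caller gave each peak. The Jurkat list held 25189 peaks with a median pileup of 37, and the RPMI-8402 list 24603 peaks with a median of 38. In 16494 pairs in which 1 peak overlapped 1 peak of the other line, the median RPMI-8402 to Jurkat ratio of pileups was 0.889. Ratios below are relative to it, so that 1 stands for the typical shared peak. On this scale 4.89% of all pairs favoured Jurkat by 2-fold or more, and 9.21% favoured RPMI-8402 by as much.

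At RUNX1 Jurkat had 15 peaks and RPMI-8402 had 5, whereas at RUNX3 each line had 5. Merged across the lines, the RUNX1 window held 16 regions. Both lines had a call at 4 of them, Jurkat alone at 11 and RPMI-8402 alone at 1. The RUNX3 window held 5 regions, all called in both lines. Of the Jurkat peaks at RUNX1, 4 of 15 (26.7%, 95% exact binomial interval 7.79 to 55.1%) overlapped a RPMI-8402 peak, while 67.4% of all Jurkat peaks did. Of the RPMI-8402 peaks there, 4 of 5 overlapped a Jurkat peak, against 68.1% of all RPMI-8402 peaks.

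In the surrounding chromosome the lines had nearly equal peak numbers. Within 5 Mb on either side of the window, Jurkat had 81 peaks and RPMI-8402 79, and 75.3% (64.5 to 84.2%) of the Jurkat peaks were shared. The 57 pairs in these flanks had a median ratio of 1.15, slightly in favour of RPMI-8402. Of 2224 tiles of 1.3 Mb with a peak in either line, 1.75% had at least 10 more Jurkat than RPMI-8402 peaks, the difference seen at RUNX1. These tiles were not matched for peak number, and those with fewer than 10 Jurkat peaks could not reach that difference. Around RUNX3, 78.3% of 175 Jurkat and 82.3% of 164 RPMI-8402 peaks were shared, and the 133 flanking pairs had a median ratio of 1.03. Among 124 tiles of 0.2 Mb with 5 peaks in each line, 39.5% had every peak shared, so complete sharing as at RUNX3 was common.

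**Figure D1:**
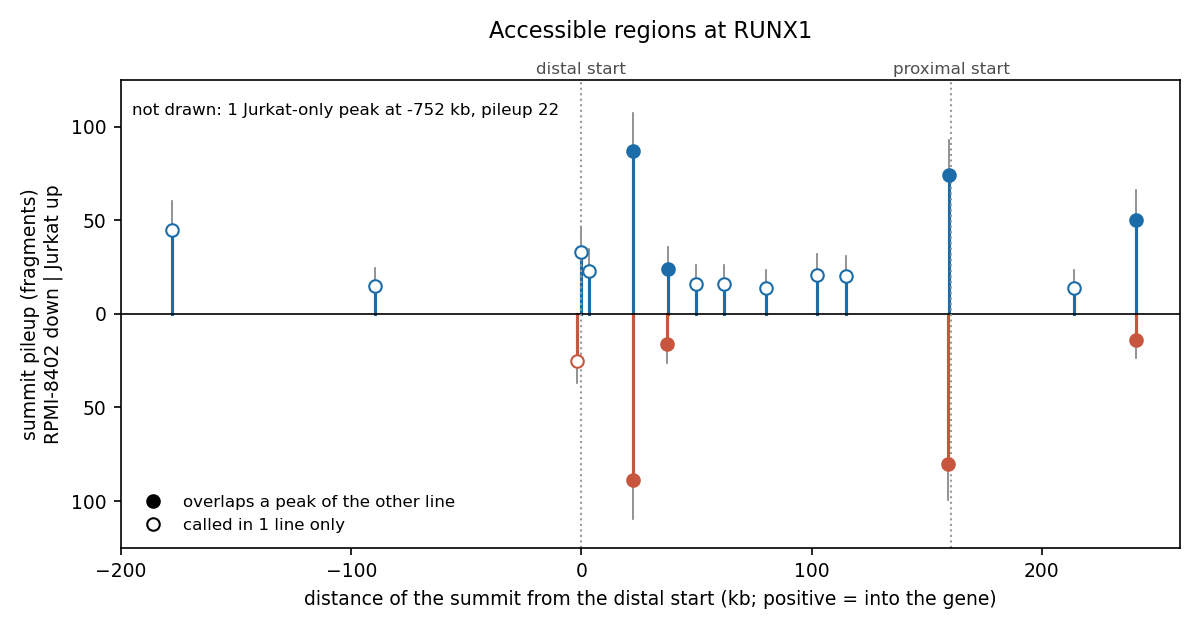
Summit pileup (fragments, vertical axis) of each RUNX1 peak against the distance of its summit from the distal start (kb), Jurkat upwards and RPMI-8402 downwards; grey lines are 95% Poisson intervals, filled points overlap a peak of the other line, open points do not. The tallest points, 87 and 89 at 22.3 kb and 74 and 80 at the proximal promoter, mirror each other, while most other Jurkat points, from 14 to 45, have no counterpart.

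The proximal promoter of RUNX1 was open to a like degree in both lines. Its peak had a pileup of 74 (95% Poisson interval 58.1 to 92.9) in Jurkat, at chromosome 21, positions 36260942 to 36262774, and of 80 (63.4 to 99.6) in RPMI-8402, at positions 36260985 to 36262877. The 2 pileup intervals overlap, and the ratio of 1.22 had an interval of 0.875 to 1.69, so a difference of up to about 1.69-fold is not excluded by the counts. The peak was very wide, 1833 bp in Jurkat and 1893 bp in RPMI-8402, wider than 99.6% and 99.3% of the peaks of its list. Its summit lay 995 bp upstream of the proximal start in Jurkat and 1245 bp upstream in RPMI-8402. From the rounded position in the rule, 36260000, the RPMI-8402 summit is 2232 bp away and would fall outside the 2-kb limit. This shift of 250 bp compares with a median of 67 bp over all pairs. The local background counts fragment ends over the 10 kb around the summit, the peak included. It held 1083 ends in Jurkat and 1077 in RPMI-8402, above 95.2% and 96.2% of all peaks. The deposited fold enrichment, which divides by this background, was 4.95 and 4.59 respectively.

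Within 2 kb of the distal start of RUNX1, a peak was called in Jurkat only. Its Jurkat peak, at positions 36421454 to 36421733, had its summit 25 bp from the given start, a pileup of 33 (22.7 to 46.3) and an enrichment of 5.34-fold. The nearest RPMI-8402 peak, at positions 36423522 to 36423847, began 1.79 kb farther upstream and was the only RPMI-8402 peak of the locus without a Jurkat partner. Its summit lay 2.09 kb upstream of the start, 91 bp past the 2-kb limit set here for a promoter peak, its pileup was 25 (16.2 to 36.9) and its enrichment 3.95-fold. With a limit of 5 kb both lines have a distal promoter peak. The peak nearest the distal start was thus narrow in each line (280 and 326 bp), and the 2 did not overlap. Jurkat had a further narrow peak (271 bp) 3.19 kb into the gene, also inside the 5-kb limit. No ratio can be given, since neither list holds a value for the site of the other. At the background of the RPMI-8402 peak (5.58 fragments per base), a pileup of at least 18 was needed for a call. The Jurkat value scaled by the median ratio of all pairs is 29.3. That ratio comes only from pairs called in both lines, so 29.3 may be too high for this site. The narrowest peak of the whole RPMI-8402 list was 309 bp, wider than the 280 bp of this Jurkat peak. Whether width limited a call was not tested.

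Between the promoters, the strongest element was shared and equal within counting error. It lay 22.3 kb into the gene, at positions 36398998 to 36399726 in Jurkat and 36399048 to 36399933 in RPMI-8402. Its pileups of 87 (69.7 to 107) and 89 (71.5 to 110) were the highest of the locus in both lines, with fold enrichments of 10.4 and 8.78. The ratio was 1.15 (0.847 to 1.56), the same as the median of the flanking pairs. A blood enhancer is known in the long first intron of RUNX1 on the side of the distal promoter, and whether this peak is that element was not tested. A weaker shared element lay 37.4 kb into the gene, with its summits 33 bp apart. Its pileups were 24 in Jurkat and 16 in RPMI-8402, a ratio of 0.75 with a wide interval of 0.372 to 1.47.

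The other 6 Jurkat peaks between the promoters had no RPMI-8402 partner. Their summits lay 3.19, 49.9, 62.0, 80.1, 103 and 115 kb into the gene. In that order their pileups were 23, 16, 16, 14, 21 and 20. They were narrow, from 271 to 428 bp, against a list median of 611 bp. The strongest of them, next to the distal promoter, was at positions 36418260 to 36418530, 4.99 kb from the nearest RPMI-8402 peak. Those at 115 and 103 kb were at positions 36306125 to 36306461 and 36318904 to 36319321, with the nearest RPMI-8402 peak 43.2 and 56.0 kb away.

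Beyond the proximal promoter, the element farthest into the gene had the largest difference of any shared member. It lay 240.9 kb from the distal start, at positions 36180246 to 36181234 in Jurkat and 36180311 to 36180948 in RPMI-8402. Its pileup was 50 (37.1 to 65.9) in Jurkat and 14 (7.65 to 23.5) in RPMI-8402, and these intervals do not overlap. The RPMI-8402 value is near the low end of its list, where 4.24% of peaks had a lower pileup and the lowest was 10. The Jurkat to RPMI-8402 ratio was 3.17 (1.73 to 6.22), past the 2-fold mark that 4.89% of all pairs passed in this direction. On the deposited fold enrichments, 8.46 in Jurkat and 3.90 in RPMI-8402, the centred ratio was lower, 1.83. The 10 kb around the element, its own fragments included, held 385 fragment ends in Jurkat and 184 in RPMI-8402. Set against the element at 22.3 kb in the same library, which removes any scaling between libraries, the 2 lines differed by 3.65-fold (1.82 to 7.66, exact conditional interval) in pileup and by 1.83-fold in enrichment. This within-library comparison was chosen after the values were seen. The peak was also wider in Jurkat, 989 against 638 bp. The remaining Jurkat peak on this side, 214.1 kb from the distal start, was narrow (265 bp) and weak (pileup 14).

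Upstream of the distal promoter, in the desert towards SETD4, all 3 further peaks were in Jurkat. The strongest, at positions 36599268 to 36600254 and 178.0 kb upstream, was 987 bp wide, wider than 84.2% of Jurkat peaks, with a pileup of 45 (32.8 to 60.2) and an enrichment of 9.46-fold. No RPMI-8402 peak lay within 175 kb of it. The peak 752.3 kb upstream, at positions 37173391 to 37174106, had a pileup of 22 and a 7.77-fold enrichment on a background of only 1.96 fragments per base. Its nearest RPMI-8402 peak was 227 kb away. The peak 89.6 kb upstream, at positions 36511074 to 36511538, had a pileup of 15.

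The 11 Jurkat-only peaks at RUNX1 had pileups from 14 to 45 with a median of 20, against a list median of 37. Of the Jurkat peaks at RUNX1 in this range, which the 11 themselves set, 11 of 12 had no RPMI-8402 peak. Of all Jurkat peaks in the range 49.2% had none, and of the whole list 32.6%. Each Jurkat pileup was scaled by the median ratio of all pairs and set against an estimate of the lowest pileup that the RPMI-8402 list could have called. For that estimate the Jurkat background was multiplied by 1.07, the median ratio of fragment ends per 10 kb over all pairs (0.902) times the ratio of fragment lengths. Of the 11, 9 scaled values reached the limit, as did 89.8% of all Jurkat-only peaks, and 8 of the 11 were under 1.5 times it, as were 57.9% of all. The 3 at 1.5 times or more were the distal promoter (29.3 against 18), the element 178.0 kb upstream (40.0 against 15) and that 752.3 kb upstream (19.6 against 11). The median ratio comes only from pairs called in both lines, while these peaks were called in Jurkat only. The scaled values may therefore be too high. The limit takes account of the summit pileup and not of peak width. The narrowest peaks were 261 bp in Jurkat and 309 bp in RPMI-8402, and the Jurkat distal promoter peak was 280 bp wide. The Jurkat-only peaks of 265, 271 and 299 bp, at 214.1, 3.19 and 62.0 kb, were also narrower than 309 bp. The true RPMI-8402 background at these sites is not in the list. What part the pileup limit or a width limit has in the missing calls was not tested.

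**Figure D2:**
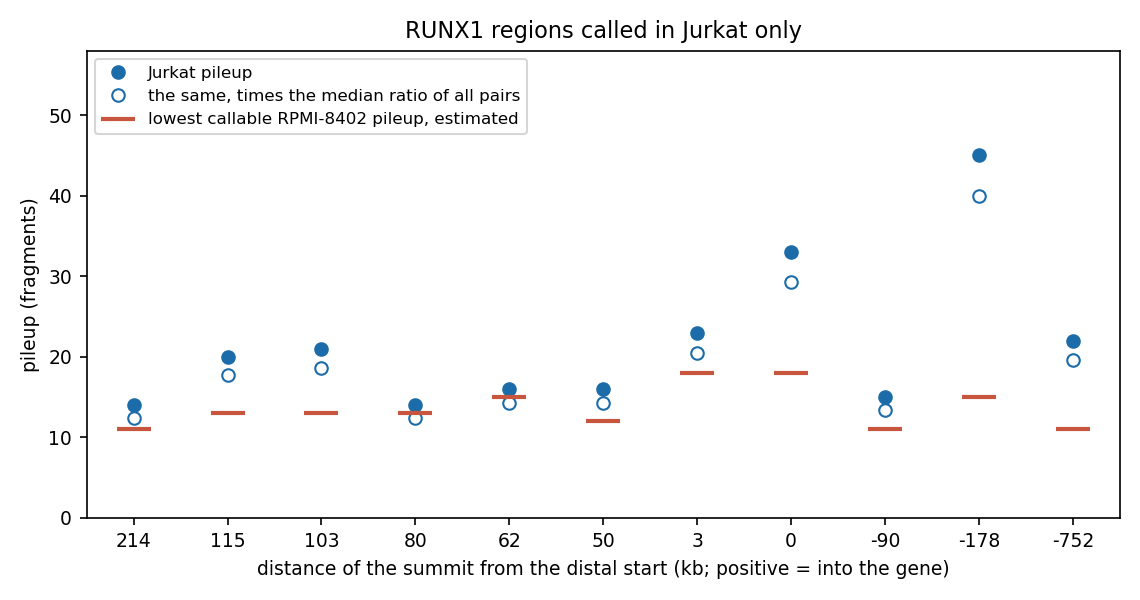
The 11 RUNX1 regions called in Jurkat only, in order along the gene (horizontal axis: distance from the distal start in kb); filled points are Jurkat pileups, open points the same times 0.889, and bars the estimated lowest pileup callable in RPMI-8402. At 0, −178 and −752 kb the open points, 29.3, 40.0 and 19.6, stand well above the bars at 18, 15 and 11. At 62 and 80 kb the open points lie below the bars. The factor 0.889 comes only from pairs called in both lines, so the open points may be too high. The bars take no account of peak width.

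At RUNX3 the deposited lists held the same 5 regions in both lines, and the pileups differed at some of them. At −log10 q of at least 10 there were 5 Jurkat and 3 RPMI-8402 peaks. The 5 regions were the 2 promoters and 3 elements upstream of the distal promoter, and the window held no other peak of either line, in the gene or below it. Pileups ranged from 23 to 71 in Jurkat and from 20 to 65 in RPMI-8402. In both lines the element 57.7 kb upstream had the highest and that 72.4 kb upstream the lowest pileup.

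**Figure D3:**
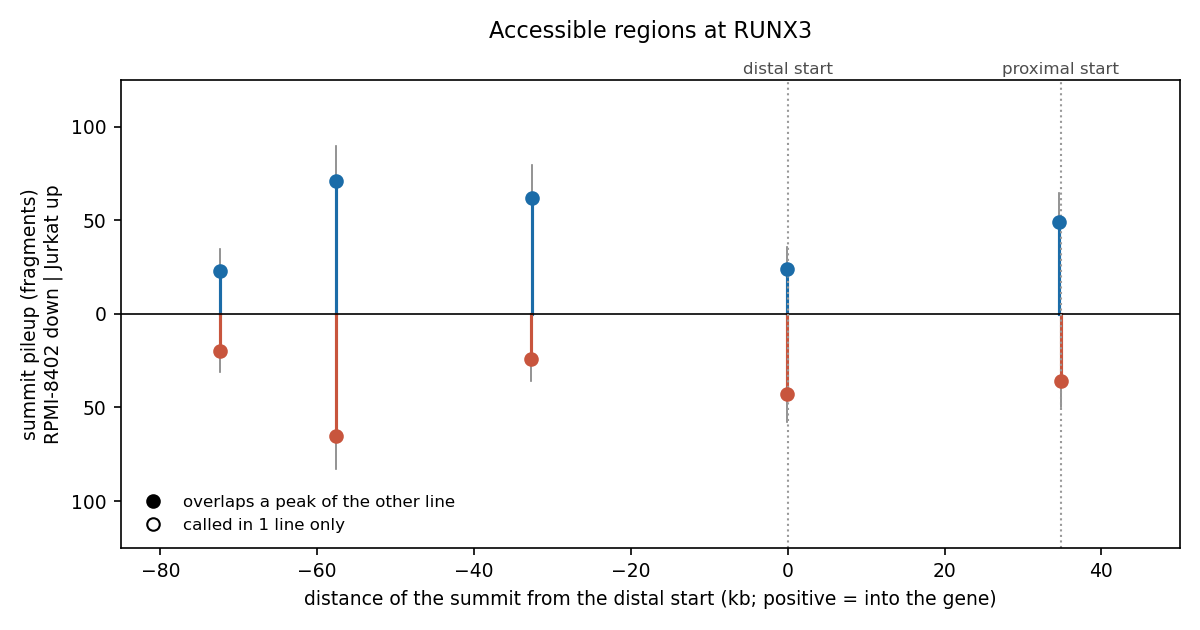
Summit pileup (fragments, vertical axis) of each RUNX3 peak against the distance of its summit from the distal start (kb), Jurkat upwards and RPMI-8402 downwards; grey lines are 95% Poisson intervals. Every point is filled, as all 5 regions were called in both lines; at the distal start RPMI-8402 is taller (43 against 24) and at −33 kb Jurkat is (62 against 24).

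The distal promoter of RUNX3 had the higher pileup in RPMI-8402. Its peak had a pileup of 24 (15.4 to 35.7) in Jurkat, at chromosome 1, positions 25291464 to 25291757, and of 43 (31.1 to 57.9) in RPMI-8402, at positions 25291439 to 25292094. These intervals overlap in a narrow range. The ratio was 2.02 (1.20 to 3.47), at the edge of the 2-fold mark that 9.21% of all pairs passed in this direction. The RPMI-8402 peak was 2.23 times as wide, 656 against 294 bp, and a width ratio above 2 occurred in 4.45% of all pairs. The 10 kb around it, the peak included, held 404 fragment ends in RPMI-8402 and 238 in Jurkat. The deposited fold enrichments, which divide by this local background, were 6.07 in RPMI-8402 and 6.09 in Jurkat, and the centred fold ratio was 1.18. RPMI-8402 was thus higher in the pileup and in these 10 kb, and level with Jurkat in the enrichment over them. Because the 10 kb hold the peak's own fragments, neither the ends nor the enrichment is a measure separate from the pileup.

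The proximal promoter of RUNX3 had the opposite order of values, within counting error. Its pileup was 49 (36.3 to 64.8) in Jurkat, at positions 25255760 to 25257206, and 36 (25.2 to 49.8) in RPMI-8402, at positions 25256386 to 25257067. The intervals overlap, and the ratio was 0.827 (0.522 to 1.30). The Jurkat peak was 1447 bp wide, wider than 98.0% of its list, and the RPMI-8402 peak 682 bp, close to that list's median of 694 bp. A width ratio this low, under 0.5, occurred in 0.940% of all pairs. Jurkat thus had a higher pileup at the proximal than at the distal promoter (49 against 24, a distal to proximal ratio of 0.49). In RPMI-8402 the intervals of the 2 promoters overlapped (distal 43 against proximal 36, a ratio of 1.19). The 2 lines differed by 2.44-fold (1.20 to 4.98, exact conditional interval) in this within-library ratio of pileups, which needs no scaling between libraries. On the deposited fold enrichments, 7.07 in Jurkat and 6.001 in RPMI-8402 at the proximal promoter, the same comparison gave 1.18-fold. The ratio was chosen after the values were seen, and the interval treats fragments as independent.

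Of the upstream elements of RUNX3, 1 had the higher pileup in Jurkat, and for 2 the interval of the ratio included 1. The element 32.7 kb upstream, at positions 25323970 to 25324571 in Jurkat and 25324153 to 25324551 in RPMI-8402, had pileups of 62 (47.5 to 79.5) and 24 (15.4 to 35.7). These intervals do not overlap, and the Jurkat to RPMI-8402 ratio was 2.30 (1.41 to 3.85). On the centred fold enrichment it was 1.53. Relative to the element 57.7 kb upstream in the same library, the lines differed by 2.37-fold (1.28 to 4.43) in pileup and by 1.63-fold in enrichment. That element, at positions 25348727 to 25349622 in Jurkat and 25348771 to 25349515 in RPMI-8402, had pileups of 71 and 65 and a ratio of 1.03 (0.724 to 1.46). The element 72.4 kb upstream, at positions 25363659 to 25364570 in Jurkat and 25363869 to 25364306 in RPMI-8402, had pileups of 23 and 20 and a ratio of 0.978 (0.51 to 1.86). The interval is wide, so likeness in pileup is not shown. This peak was 912 bp wide in Jurkat and 438 bp in RPMI-8402. A width ratio this low, under 0.5, occurred in 0.940% of all pairs. For all 3 the Jurkat peak was the wider.

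**Figure D4:**
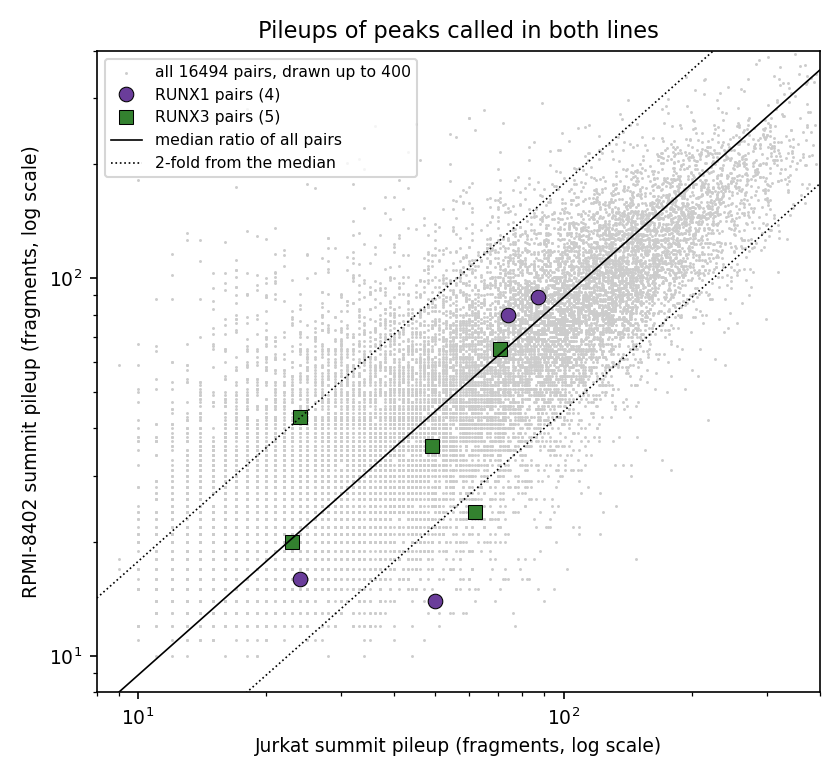
Pileup in RPMI-8402 against pileup in Jurkat (fragments, both axes logarithmic, drawn up to 400) for all 16494 pairs in grey, with the 4 RUNX1 and 5 RUNX3 pairs marked; the solid line is the median ratio of 0.889 and the dotted lines are 2-fold from it. The RUNX1 element at 50 and 14 and the RUNX3 element at 62 and 24 lie below the lower dotted line, and the RUNX3 distal promoter at 24 and 43 lies at the upper one.

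Over both loci, 9 regions could be compared between the lines, and the counting interval of the ratio lay on 1 side of 1 for 3 of them. Over all pairs this held for 38.7%, so the count is near that of the genome. These were the RUNX1 element at 240.9 kb and the RUNX3 element 32.7 kb upstream, higher in Jurkat, and the RUNX3 distal promoter, higher in RPMI-8402. When pileups were divided by the genome-wide background of each library instead, 18.6% of all pairs favoured Jurkat and 3.29% favoured RPMI-8402 by 2-fold or more. This scale was not centred, and the median log2 ratio of all pairs on it was −0.471, so a value under 1 is usual there. On this scale the ratio of the RUNX3 distal promoter was 1.45, and it was the only region of the 9 above 1. On the centred fold enrichment, where 0.315% of all pairs were 2-fold higher in Jurkat, the 2 elements had RPMI-8402 to Jurkat ratios of 0.545 and 0.654, the lowest of the 9.

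**Figure D5:**
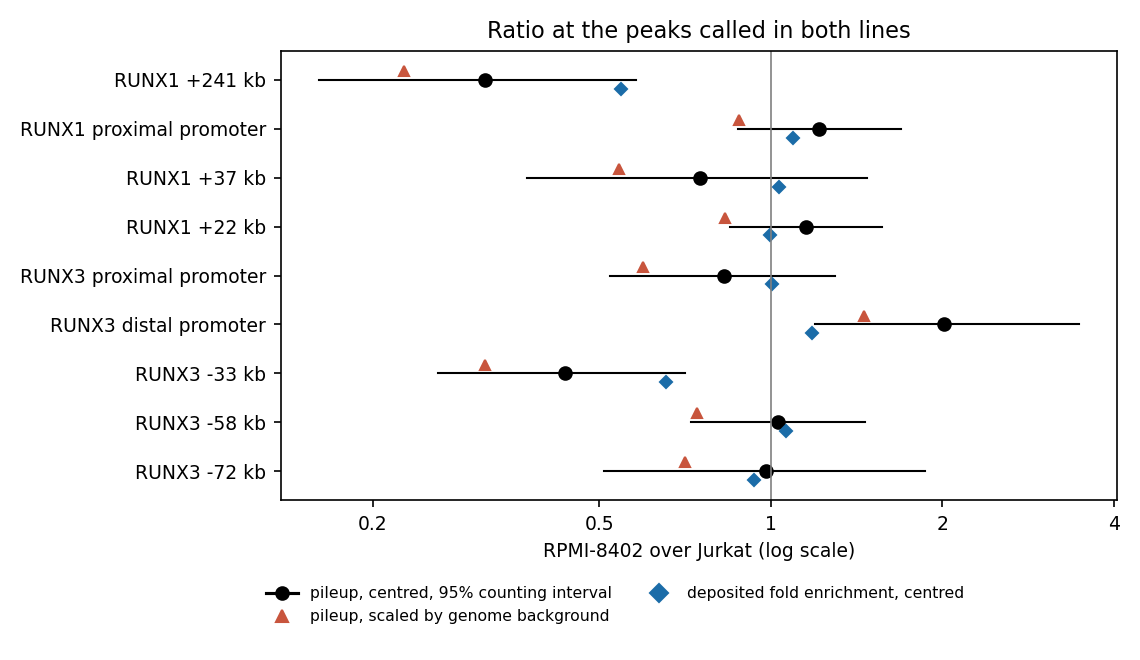
RPMI-8402 to Jurkat ratio (horizontal axis, logarithmic) at the 9 regions called in both lines, named by promoter or by distance from the distal start; circles are centred pileups with 95% counting intervals, triangles pileups scaled by the genome background and diamonds the centred fold enrichment. RUNX1 +240.9 kb and RUNX3 −33 kb lie below 1 on all 3 scales, and the RUNX3 distal promoter lies above 1 on all 3. RUNX3 −72 kb is also below 1 on all 3, at 0.978 in centred pileup with an interval that includes 1. The background scale is not centred, so the typical pair of the genome lies below 1 on it.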

How the data were processed

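The measurements are ATAC-seq peaks of 1 library per line, Jurkat and RPMI-8402, read as paired ends of 150 bp per the labels. The submitters' processing notes name Bowtie2, Picard, SAMtools, MACS2 2.1.1.2016030 and hg19 and give no parameters. How reads were filtered, and whether duplicates were removed or the Tn5 offset applied, is not stated in the sources used here. Each library has its own list, so nothing was pooled. Per peak the authors deposited a summit, a fold enrichment, a −log10 p-value, a −log10 q-value and a score (10 times the former). Pileup and local background were solved from the deposited fold and −log10 p-value with the formulas that MACS2 is known to use, a pseudocount of 1 in the fold and a Poisson upper tail. A whole pileup, within 1% of the step to the next, came out for 100% of peaks. The genome-wide background was 1.59 (Jurkat) and 1.96 (RPMI-8402) fragments per base at fragment lengths of 261 and 309 bp. For an assumed genome of 2.7 Gb this makes 16.4 M and 17.1 M fragments.

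Peaks on the autosomes, X and Y counted as shared when they had 1 bp or more in common. A promoter peak has its summit within 2 kb of a start. The distal starts are those of the rule that chose the members, and the proximal starts are textbook hg19 starts of the shorter transcripts, because the position named for RUNX1 was rounded; this start is what makes the RPMI-8402 peak there a promoter peak at 2 kb. Named were promoters, the 5 highest other elements and line-only peaks per locus and line, and pairs past 2-fold. The members and lists were chosen with earlier results of these data known, and the within-library ratios and calling limits were added after the values were seen. Pileups have exact Poisson, shares exact binomial and ratios exact conditional 95% intervals; PCR copies would make them too narrow. Context genes such as CBFB need an hg19 annotation and were not analysed here. The scripts (matplotlib 3.10.9, scipy 1.17.1, pandas 2.3.3 and numpy 2.4.6 under Python 3.11.15) were tested on simulated data: of 25189 pileups drawn for Jurkat and 24603 for RPMI-8402, 100% came back, which checks the solving and not the formula. Alternatives were other overlaps, stricter lists, other scalings and other promoter distances.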

Additional observations from a re-analysis of the deposited data

How the results depend on the processing

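Stricter lists removed most RUNX1 peaks: at −log10 q of at least 10 there were 7 in Jurkat and 2 in RPMI-8402, and among the 10000 strongest peaks of each list 1 and 1. At RUNX3 the counts were 5 and 3, then 2 and 1. The share of Jurkat RUNX1 peaks shared was 28.6% at −log10 q of at least 10, but 60.0% (3 of 5) for peaks of pileup 30 or more, an alternative added after seeing the data, and 100% among the 10000 strongest (1 peak). The RPMI-8402 share there was 100% in these 3 settings (2, 2 and 1 peaks). At an overlap of 50% of both peaks, the RUNX3 shares dropped to 40.0% in both lines, as widths differ; the RUNX1 shares stayed. The RUNX3 share of Jurkat peaks was 60.0% (3 of 5) at −log10 q of at least 10 and 50% (1 of 2) among the 10000 strongest, and that of RPMI-8402 peaks 100% in both. The RUNX3 distal promoter ratio was 1.18 on the centred fold enrichment. The median ratio of the 3 RUNX1 pairs outside the promoters, 0.75, was 0.667 without centring, 0.541 scaled by the genome background, 0.651 centred on pairs within 5 Mb and 0.998 on the fold. That of the 3 RUNX3 pairs, 0.978, was 0.870 without centring and 0.706 scaled by the background. Where no construction shows it, the cause was not tested. No ratio could be formed at the RUNX1 distal promoter under any setting, as no peaks overlap there, but with promoters taken within 5 kb the RPMI-8402 peak 2.09 kb upstream counts as one. With a single library in each line, leaving out a replicate was not possible. No paired analysis was possible because there are no replicate numbers to share. The weakest pileups called were 9 in Jurkat and 10 in RPMI-8402.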
